A study of Homo sapiens with 2 samples.

Results

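Expression was examined for 48 genes of the kinetochore, the spindle assembly checkpoint, anaphase onset and the cohesin and condensin complexes in hTERT-RPE1 cells. The genes were listed by name, and a probe set was assigned to a gene when the array's annotation gave that gene as its only symbol. Of the 48 genes, 47 had such a probe set, 94 probe sets in all, and CENPP was the exception. Where several probe sets were listed, the one with the highest mean log2(signal + 16) over both arrays stood for the gene, and the gene was counted as measured when it reached a signal of 100 on either array, which held for 44 of the 47. Over the whole array 12754 of 19775 genes were measured by the same rule.

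The hTERT-RPE1 line derives from human retinal pigment epithelium and was immortalised by expression of telomerase. Cells were grown in DMEM/F-12 with 10% FBS and hygromycin B. They were transfected by RNAiMAX with a control (Ctrl) oligo or with the miR-129-3p (M129) oligo, and total RNA was extracted after 72 h. Each of the 2 groups held 1 Affymetrix array, so a value below has no replicate error, no difference was tested, and a comparison is one of these 2 arrays. The series title places the experiment in a study of cilia assembly, CP110 and actin dynamics; the genes below were not its stated subject.

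RefSeq lists the mature sequences of the 3p arm of miR-129 from both genomic copies, shown here because the miRNA is the only difference the labels give between the groups. The labels state no oligo sequence and do not say which copy was used. Both copies (GRCh38.p14; chr7:128207920-128207941 and chr11:43581450-43581471, plus strand) share the seed, bases 2 to 8, in capitals. They differ by U20C, with the base of miR-129-1-3p first and positions counted from the 5′ end.
hsa-miR-129-1-3p: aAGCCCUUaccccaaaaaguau
hsa-miR-129-2-3p: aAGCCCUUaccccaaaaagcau

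The kinetochore is the protein assembly that joins a chromosome's centromere to spindle microtubules during mitosis. Its inner layer sits on chromatin that carries the histone variant CENP-A, and its outer layer holds the NDC80 complex, which grips microtubules. While kinetochores lack attachment, checkpoint proteins hold back CDC20, the activator of the anaphase-promoting complex; once CDC20 is free, securin is destroyed and separase cuts cohesin, the ring that ties sister chromatids together. Condensin and topoisomerase II compact and untangle the chromosomes. Many of these genes are transcribed mainly in cells that are preparing to divide, while others, such as the core cohesin subunits, also act outside mitosis.

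A large part of the group had lower signals with miR-129-3p, and the lower genes were chiefly those of the kinetochore and the checkpoint, while the cohesin ring differed little. On the log2(signal + 16) scale, 23 of the 44 measured genes (52.3%) were at least 2-fold lower on the miR-129-3p array, against 4.56% of all 12754 measured genes. None of the 44 was at least 2-fold higher (0 genes, against 7.83% of all). At a limit of 1.5-fold, 28 were lower (10.8% of all) and 0 higher (17.3% of all), and at 4-fold, 8 were lower (0.925% of all). The median difference over the 44 genes was -1.13, or 2.19-fold lower, and that over all measured genes was 0.03. The difference was below 0 for 33 genes and above 0 for 11 (6002 and 6752 of all measured genes). It ranged from -2.82 for CDC20 to 0.22 for STAG2. CENPA, CENPI and SPC25, among the 23 and the 33, reached 100 on the control array alone and could only lie below 0. In RNA from a whole culture, fewer cells in a given phase and less RNA per cell cannot be told apart.

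**Figure D1:**
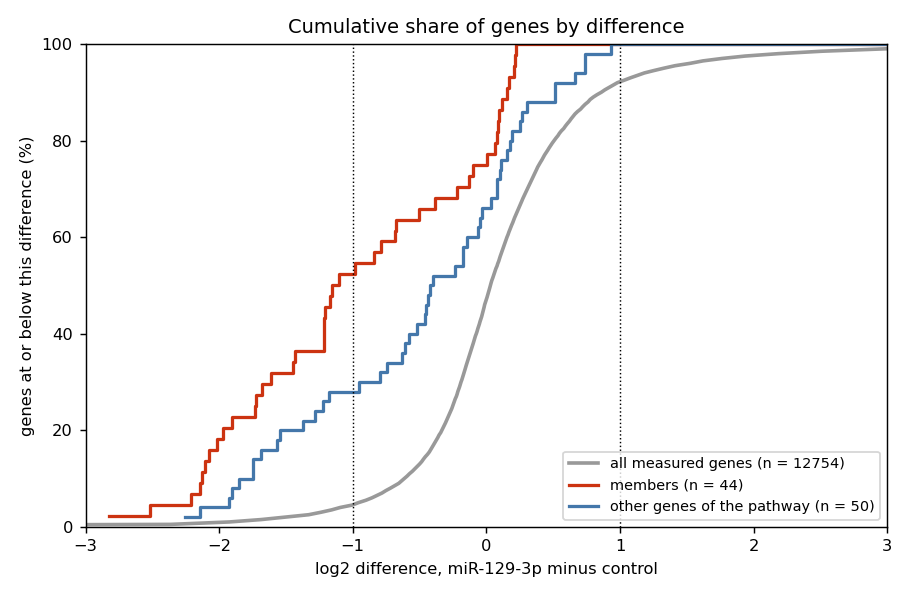
Cumulative share of genes (%, vertical axis) at or below a given log2 difference of miR-129-3p minus control (horizontal axis) for the 44 measured members, 50 other genes of the pathway and all 12754 measured genes. The members' curve passes 52.3% at the 2-fold lower line, where the curve of all genes stands at 4.56%.

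The genes with the lowest differences came from several of the functional classes. The CDC20 signal was 1424 on the control array and 188 on the miR-129-3p array, which is a log2 difference of -2.82 (7.07-fold lower); paired signals below are given in this order. CENPF, a large protein of the outer kinetochore and nuclear envelope, read 2132 and 359 (-2.52), and a second probe set differed by -2.70. BUB1B, the gene of the checkpoint protein BUBR1, read 1484 and 309 (-2.21). For CDC20, CENPF and BUB1B both arrays read above 100, so neither signal was under the limit for a measured gene. SPC25, a subunit of the NDC80 complex, read 372 and 71.8 (-2.14), so its lower signal was under 100.

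Of the 8 genes at least 4-fold lower, 7 had a promoter window and 6 of these held the letters of a cell cycle genes homology region (CHR), a promoter element known from genes transcribed in late cell cycle phases. The same letters were in 63.2% of the group's measured genes that were not 2-fold lower. Over all measured genes with a window the share was 15.8%. CENPE held none, and CENPA and CENPN, which held them, are not printed. The promoters shown are those of the 4 lowest genes among the genes at least 4-fold lower that hold these letters. That of CENPB, the measured gene with the difference nearest 0 and no such letters (0.00), is shown for comparison. It was chosen after its value was seen. The contrast in CHR letters between CENPB and the other 4 was therefore set by the choice. Sequences are from RefSeq (GRCh38.p14), run from 250 bases before to 50 after a start site, and lie at chr1:43358731-43359030, plus strand; chr1:214602945-214603244, plus strand; chr15:40160819-40161118, plus strand; chr2:168890381-168890680, minus strand; and chr20:3786691-3786990, minus strand. Capitals mark matches on either strand to the CHR letters, TTTGAA or its variant TTCGAA, and to the letters of the CCAAT box.
CDC20: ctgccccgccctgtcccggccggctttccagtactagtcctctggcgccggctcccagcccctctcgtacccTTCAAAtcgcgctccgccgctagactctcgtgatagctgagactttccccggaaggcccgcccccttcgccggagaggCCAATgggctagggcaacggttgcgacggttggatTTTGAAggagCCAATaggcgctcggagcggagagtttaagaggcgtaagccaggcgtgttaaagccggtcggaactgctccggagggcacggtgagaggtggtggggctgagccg
CENPF: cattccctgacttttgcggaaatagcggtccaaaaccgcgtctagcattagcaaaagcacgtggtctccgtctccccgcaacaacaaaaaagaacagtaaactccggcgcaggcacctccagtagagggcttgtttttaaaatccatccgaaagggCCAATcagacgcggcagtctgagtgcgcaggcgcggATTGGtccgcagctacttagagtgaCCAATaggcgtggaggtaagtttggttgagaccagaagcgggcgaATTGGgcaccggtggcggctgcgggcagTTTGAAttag
BUB1B: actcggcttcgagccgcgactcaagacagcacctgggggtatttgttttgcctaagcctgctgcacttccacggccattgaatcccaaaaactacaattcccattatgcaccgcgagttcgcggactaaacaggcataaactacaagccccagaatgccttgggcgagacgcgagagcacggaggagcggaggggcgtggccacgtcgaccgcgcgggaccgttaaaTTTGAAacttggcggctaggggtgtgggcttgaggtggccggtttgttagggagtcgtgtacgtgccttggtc
SPC25: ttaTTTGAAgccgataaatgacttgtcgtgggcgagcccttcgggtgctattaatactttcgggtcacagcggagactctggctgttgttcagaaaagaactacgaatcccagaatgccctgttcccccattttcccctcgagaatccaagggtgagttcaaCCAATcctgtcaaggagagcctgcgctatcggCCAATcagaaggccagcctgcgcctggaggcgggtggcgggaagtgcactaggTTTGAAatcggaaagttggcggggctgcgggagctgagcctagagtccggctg
CENPB: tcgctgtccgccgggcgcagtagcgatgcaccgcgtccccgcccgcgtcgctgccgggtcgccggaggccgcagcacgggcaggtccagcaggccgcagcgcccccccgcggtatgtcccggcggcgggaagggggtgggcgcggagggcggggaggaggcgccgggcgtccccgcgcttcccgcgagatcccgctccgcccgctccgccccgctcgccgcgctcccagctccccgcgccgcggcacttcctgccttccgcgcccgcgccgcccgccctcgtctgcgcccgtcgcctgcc

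The windows differ in which letters they hold. CDC20 has 2 CHR matches, from positions 73 and 186 of the 300 bases, and 2 CCAAT matches. CENPF has 1 CHR match, from position 291 and so past the start site, with 4 CCAAT matches. BUB1B has 1 CHR match, from position 228, and 0 CCAAT matches. SPC25 has 2 of each, with the CHR matches at positions 4 and 248. A letter match describes the sequence and is not a measured binding site.

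**Figure D2:**
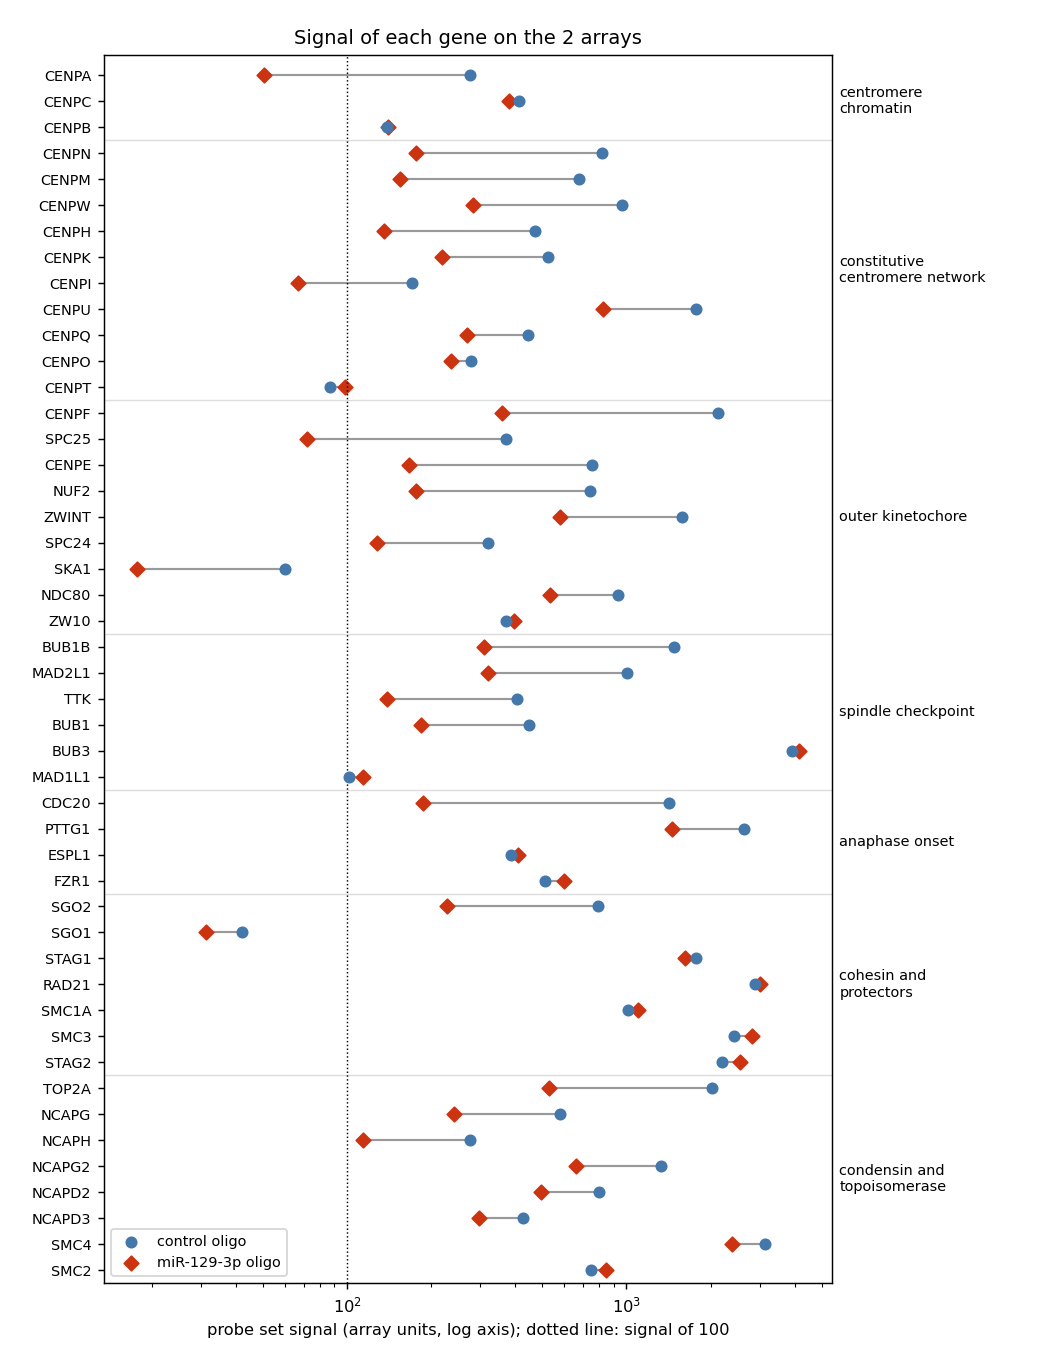
Probe set signal (array units, log axis) of 47 genes on the control array (circles) and the miR-129-3p array (diamonds), grouped by role and ordered by difference within a role; each point is 1 array. CDC20 moves from 1424 to 188, while BUB3 (3921 and 4144) and the cohesin ring genes have nearly coincident points.

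At the centromere itself, 1 of 3 genes was at least 2-fold lower (4.56% of all measured genes). CENPA encodes the histone variant that marks the centromere, and its probe set read 275 and 50.5 (-2.13, 4.37-fold lower). That probe set ends in _x_at, a class of probes that may also bind other transcripts, and another probe set, listed for CENPA together with a second gene, was left out. CENPB, which binds a DNA motif in centromeric repeats, read 139 and 140. CENPC, the scaffold that links CENP-A chromatin to the outer kinetochore, read 411 and 381 (-0.10). CENPB and CENPC thus had nearly equal signals on both arrays, unlike the histone variant, which reached 100 on the control array alone.

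The constitutive centromere-associated network, the inner kinetochore complex that stays at centromeres through the cell cycle, had a median difference of -1.21 over its 9 measured genes. Each of the 9 lay below 0 (6002 of all 12754 measured genes did) and 7 of them were at least 2-fold lower (4.56% of all). CENPI is among the 7 and reached 100 on the control array alone, so it could only appear as lower. CENPN, which recognises CENP-A nucleosomes, read 816 and 177 (-2.11), but its other probe sets above 100 differed by -1.10 and -0.64. The genes of the CENP-H, -I, -K and -M subcomplex were all at least 2-fold lower, with the sign of CENPI fixed as stated. CENPM read 677 and 155 (-2.02). CENPH read 470 and 136 on an _x_at probe set (-1.68). CENPK read 526 and 219 (-1.21). CENPI read 170 and 66.8 (-1.17), with -0.81 on its second probe set, which also reached 100 on the control array alone. The order of the differences in this subcomplex therefore runs from CENPM to CENPI, with the last pair nearly level.

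CENPW forms a histone-fold pair with CENP-T, and a 2-fold difference was seen for one of the partners. CENPW read 968 and 281 (-1.73, 3.31-fold lower). CENPT stayed just under the limit for a measured gene on both arrays, at 86.6 and 98.0, so no fold was taken from it. In the CENP-O, -P, -Q and -U subcomplex the differences were smaller. CENPU read 1781 and 823 on its brightest probe set (-1.10), and its other probe sets differed by -0.12 and -0.24, so the 2-fold call rested on 1 of 3 probe sets. CENPQ read 443 and 269 (-0.69), and CENPO 277 and 236 (-0.22), with -0.40 on its second probe set. CENPP is not analysed here.

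The outer kinetochore, which contacts the microtubules, had the lowest median of the 7 role groups, -1.70 over 8 measured genes. Of these, 6 were at least 2-fold lower (4.56% of all measured genes). All 4 subunits of the NDC80 complex were at least 1.5-fold lower (10.8% of all), by unequal amounts, and 3 of them at least 2-fold. SPC25 is among the 3 and reached 100 on the control array alone, so it could only appear as lower. SPC25 (above) and NUF2, which read 740 and 177 (-1.97), had the lowest differences of the complex. SPC24 read 319 and 128 (-1.21), with -0.40 on its other probe set, and NDC80 itself, which carries the main microtubule-binding head, 930 and 533 (-0.79). The partners NDC80 and NUF2 bind each other as a dimer, and so do SPC24 and SPC25; the lower differences of these pairs were those of NUF2 and SPC25 on the probe sets used. SKA1, of the complex that tracks shortening microtubule ends, was not measured, with signals of 59.9 and 17.7.

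Among the other outer proteins, CENPE, a kinesin that carries chromosomes to the spindle equator, read 752 and 166 (-2.07, 4.21-fold lower). ZWINT, which helps to bring the ZW10 complex to kinetochores, read 1587 and 577 (-1.43). ZW10, a subunit of that complex with a further role in vesicle transport, read 371 and 397 (0.09) and was the single measured gene of the outer kinetochore group above 0.

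In the spindle checkpoint, 4 of 6 genes were at least 2-fold lower (4.56% of all measured genes) and 2 differed little. The median was -1.33. BUB1B (above) was the lowest. MAD2L1 encodes MAD2, which binds and holds CDC20, and read 1007 and 319 (-1.61), with -1.98 and -1.70 on its other probe sets. TTK, the kinase MPS1 that starts checkpoint signalling, read 407 and 139 (-1.45). BUB1, a kinase that brings other checkpoint proteins to the kinetochore, read 448 and 184 (-1.21). Its other 4 probe sets were under 100 on both arrays.

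BUB3 and MAD1L1 lay close to 0. BUB3, the adaptor that carries BUB1 and BUBR1, read 3921 and 4144 (0.08), and its 4 probe sets above 100 lay between -0.03 and 0.20. MAD1L1, the platform for MAD2, read 101 and 114 (0.15) and lay just above the limit for a measured gene. The difference between BUB1B and BUB3 on the log2 scale was larger than the pooled SD of 0.37 between probe sets of the same gene, taken over 6179 genes; that SD is a spread within arrays and holds no variation from culture to culture.

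Of the 4 genes of anaphase onset, only CDC20 was at least 2-fold lower (4.56% of all measured genes). FZR1 encodes CDH1, the second activator of the anaphase-promoting complex, which acts from late mitosis into the next cycle; it read 513 and 596 (0.21), and its 4 probe sets reaching 100 lay between 0.05 and 0.53. PTTG1, which encodes securin, read 2626 and 1458 (-0.84, 1.79-fold lower) on its only probe set, of the _x_at class; PTTG1 has near-identical relatives whose transcripts could share it. ESPL1, which encodes separase, read 386 and 410 (0.08), with 0.15 on its second probe set. The activators CDC20 and FZR1 thus differed in opposite directions, FZR1 by less than the spread between probe sets.

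The cohesin ring differed little between the arrays. Its 5 ring and STAG genes, all measured, lay between -0.13 and 0.22 on the probe sets used, with 0 at least 1.5-fold lower or higher. Of all 12754 measured genes, 9172 lay within 1.5-fold as well. SMC1A and SMC3, the coiled-coil arms of the ring, read 1015 and 1104 (0.12) and 2432 and 2804 (0.20). The other SMC1A probe set at 100 or more differed by -0.31, so the sign for SMC1A depended on the probe set. Those of SMC3 lay between 0.02 and 0.22. RAD21, the link that separase cuts, read 2884 and 3012 (0.06), and 0.18 on its second probe set. STAG1 and STAG2, alternative subunits that contact DNA, read 1774 and 1617 (-0.13) and 2192 and 2560 (0.22), and their other probe sets at 100 or more agreed in sign. SGO2, a shugoshin that protects centromeric cohesin, was apart from them at 792 and 227 (-1.73), with -1.74 on its other probe set. SGO1, the shugoshin of mitotic centromeres, was not measured, at 42.1 and 31.1.

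**Figure D3:**
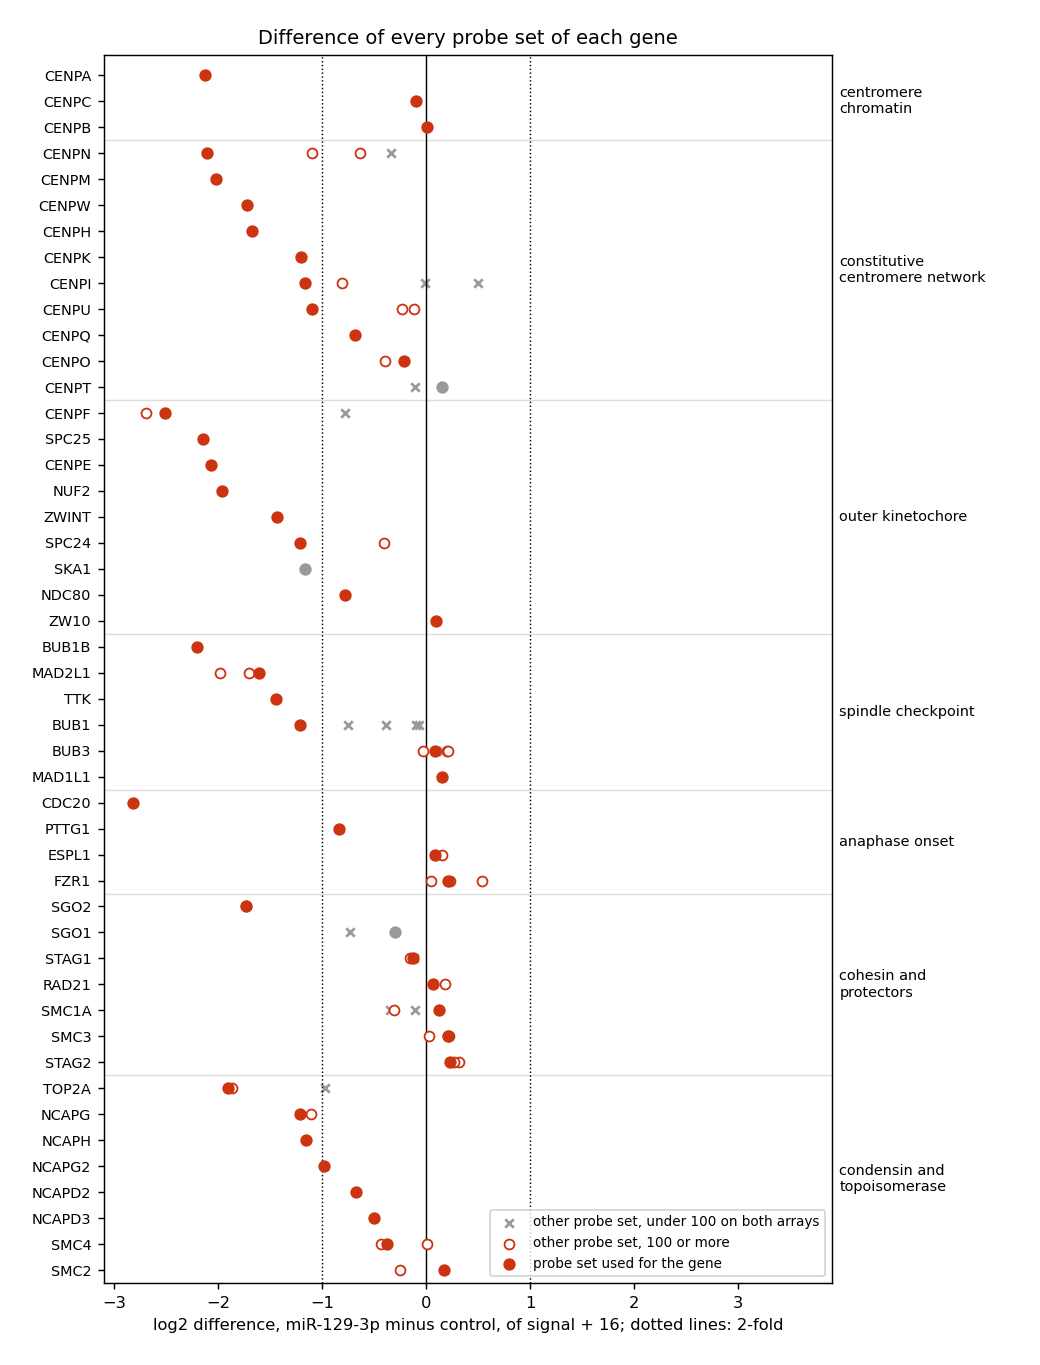
Log2 difference of miR-129-3p minus control (horizontal axis) for all 94 probe sets of the 47 genes. Filled circles are the probe sets used for the genes (grey where not measured), open circles other probe sets at 100 or more on either array, and crosses those under 100 on both. The open circles of CENPF, MAD2L1, TOP2A, NCAPG and SGO2 lie left of the 2-fold line with the filled ones, whereas those of CENPU lie near 0.

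Condensin and topoisomerase genes had a median of -0.83 over 8 measured genes. Of these, 3 were at least 2-fold lower (4.56% of all measured genes) and 5 at least 1.5-fold lower (10.8% of all). TOP2A, the topoisomerase that untangles sister chromatids, had the lowest difference, with 2021 and 529 (-1.90) and -1.87 on its second probe set. All 5 non-SMC subunits were below 0, as were 6002 of all 12754 measured genes. Of the condensin I subunits, NCAPG read 581 and 242 (-1.21, and -1.11 on its other probe set), NCAPH 274 and 114 (-1.16) and NCAPD2 800 and 496 (-0.67). Of the condensin II subunits, NCAPG2 read 1326 and 662 (-0.99), just short of the 2-fold limit that CENPU passed at -1.10, and NCAPD3 428 and 296 (-0.51).

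The SMC arms shared by both condensins stood closer to 0 than their partners. SMC2 read 749 and 845 (0.17), with -0.25 on its second probe set, so its sign depended on the probe set. SMC4 read 3122 and 2392 (-0.38), with -0.44 and 0.01 on the others. Over both complexes, 0 of the 4 SMC genes were 1.5-fold lower or higher (10.8% and 17.3% of all measured genes), and their median difference was 0.15.

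Agreement between probe sets was examined because each call rests on 1 array a group. Of the 23 genes called at least 2-fold lower, 14 had 1 probe set at 100 or more. The other 9 genes had 12 further probe sets at that level, all 12 below 0, of which 9 were at least 1.5-fold and 7 at least 2-fold lower; they ranged from -2.70 to -0.12. Of the 12, 3 (of MAD2L1, CENPI and CENPN) reached 100 on the control array alone and so could only lie below 0; of the other 9, all 9 were below 0, 6 at least 1.5-fold and 6 at least 2-fold lower. In 5 of these 9 genes every probe set at 100 or more was at least 2-fold lower. In the 21 measured genes that were not called, 19 further probe sets of 11 genes ranged from -0.44 to 0.53 and 0 passed 2-fold in either direction. Among them, those of FZR1 at 0.53 and 0.23 reached 100 on the miR-129-3p array alone. That of CENPO at -0.40 reached it on the control array alone, so the signs of these were fixed. Within the group the pooled SD between probe sets of a gene was 0.30, over 20 genes. CENPA, CENPI and SPC25 likewise counted as measured through the control array alone and could only appear as lower.

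**Figure D4:**
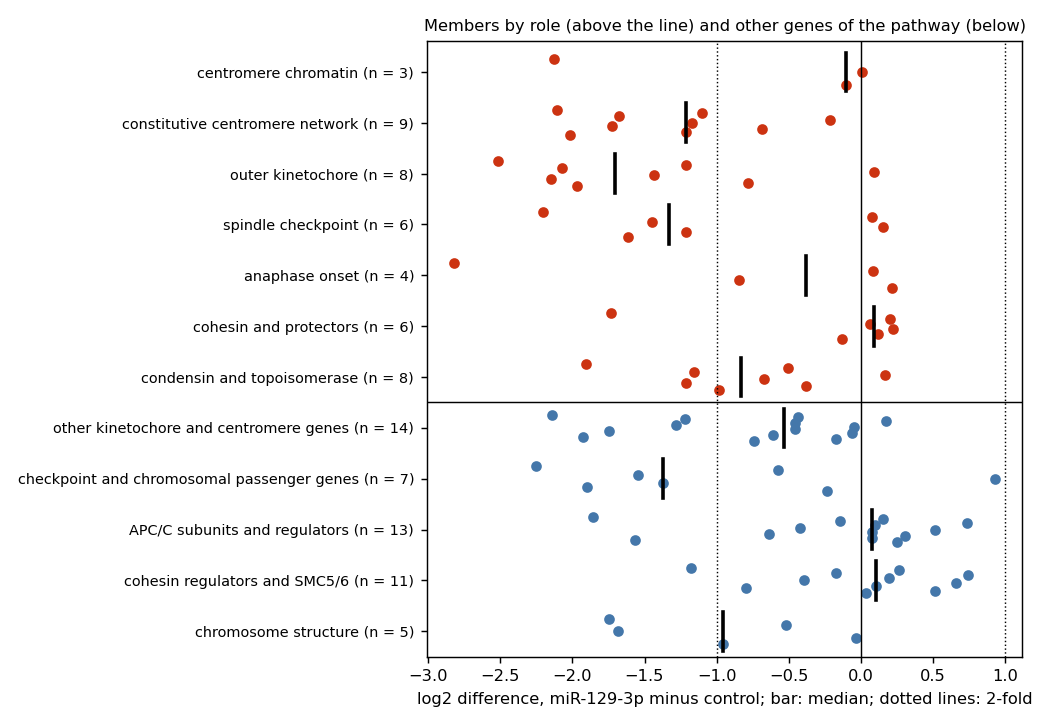
Log2 difference of miR-129-3p minus control (horizontal axis) of each measured gene, by role group (upper 7 rows, members) and for 50 other genes of the pathway (lower 5 rows); black bars are medians. The outer kinetochore has the lowest median of the member groups (-1.70), and the cohesin group the highest (0.09).

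Genes of the same machinery outside the 48 were taken as a list of 52, of which 50 were measured. The 2-fold limit was passed by 14 of these in the lower direction (4.56% of all measured genes) and by 0 in the higher (7.83%), and their median was -0.41. At 1.5-fold, 19 were lower (10.8% of all) and 4 higher (17.3% of all). SKA3, KIF22, ESCO2 and INCENP were measured through the control array alone and could only appear as lower; 1 of the 14 and 3 of the 19 are among them. Its lowest genes were BIRC5, the survivin subunit of the chromosomal passenger complex (1222 and 243, -2.25), and KNL1, the kinetochore scaffold for BUB proteins (839 and 178, -2.14). HJURP, the chaperone that loads CENP-A (794 and 197, -1.93), and AURKB, the Aurora B kinase (747 and 188, -1.90), followed. The other AURKB probe set at 100 or more differed by -0.67, so its 2-fold call rested on 1 of 2 probe sets. UBE2C, an E2 enzyme of the anaphase-promoting complex, read 1772 and 478 (-1.86). HJURP and the histone it loads were both at least 2-fold lower. CENPA, on its _x_at probe set, reached 100 on the control array alone and so could only appear as lower.

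The list again held genes near 0 beside the lower ones. Of the 10 measured subunits of the anaphase-promoting complex, 0 were at least 2-fold lower (4.56% of all measured genes), with a median of 0.13. In each direction 1 passed 1.5-fold (10.8% of all lower and 17.3% higher). The higher was CDC27 (1807 and 3022, 0.74). Cohesin regulators and the SMC5/6 genes had a median of 0.11 over 11, with 1 at least 2-fold lower (4.56% of all measured genes). The highest differences were those of MAD2L1BP, which takes MAD2 off the checkpoint complex (616 and 1190, 0.93), ESCO1, a cohesin acetyltransferase (1087 and 1827, 0.74), CDC27, MAU2, a subunit of the cohesin loader (1334 and 2120, 0.66), and ANAPC4 (1071 and 1535, 0.51). The MAU2 probe sets at 100 or more ranged from 0.16 to 0.82. MKI67, a marker of dividing cells, was in this list and read 734 and 217 (-1.69). Its part in the differences above was not tested.

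Promoter windows were examined for what the genes share beyond the rule that chose them. RefSeq windows were found for 43 of the 48 genes, 55 windows in all; the others are BUB3, CENPH, CENPM, RAD21 and TTK. CHR letters (TTTGAA or TTCGAA, either strand; 0 overlapping matches of both) occurred in a window of 27 of the 43 genes (62.8%), against 15.8% of 10338 measured genes and 19.5% of 27305 genes in the table. The share was nearly the same in the genes at least 2-fold lower, 13 of 20 (65.0%), and in the measured genes that were not, 12 of 19 (63.2%). ESPL1, SMC3 and ZW10 hold the letters and differed by 0.08, 0.20 and 0.09, whereas CENPE lacks them and differed by -2.07. Presence of CHR letters in any window of a gene therefore did not separate the lower genes from the others. The mean number of windows per gene was 1.1 in the lower genes, 1.42 in those not lower and 1.46 over all measured genes. More windows give more sequence in which to match, and the shares do not allow for this.

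CCAAT letters occurred in 26 of the 43 (60.5%), against 43.0% of measured genes, and E2F letters (GGCGGGAA or GCGCGAAA) in 9 (20.9%), against 7.01%. CCAAT letters were in 15 of the 20 lower genes (75.0%) and 9 of the 19 others (47.4%). The 15 measured genes with both CHR and CCAAT letters had a median difference of -1.61 and held 10 of the lower genes. The 10 with CHR letters alone had a median of -0.58, the 9 with CCAAT letters alone one of -1.10, and the 5 with neither one of 0.00. The ranges of these 4 classes overlapped, and the split by both elements was chosen after the values were seen.

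**Figure D5:**
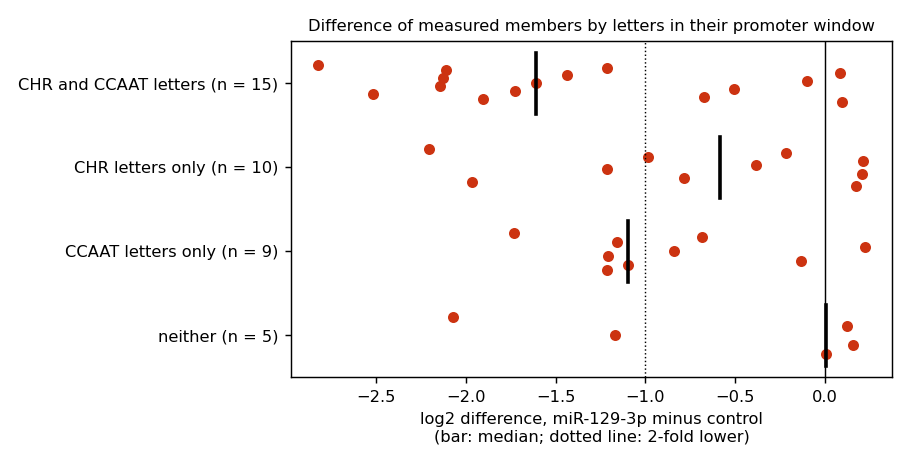
Log2 difference of miR-129-3p minus control (horizontal axis) of the 39 measured genes with a promoter window, by the letters in their windows; points are genes and black bars medians. The class with CHR and CCAAT letters has the lowest median (-1.61) but spans -2.82 to 0.09, overlapping the others.

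The identity of the cultures was checked on marker genes. KRT8, KRT18, VIM and CDH2, which the line expresses, read 2972 to 18474 on both arrays, with differences from -0.96 to -0.19. TERT, the gene of the catalytic subunit of telomerase, read 45.9 and 116 (1.09). It reached 100 on the miR-129-3p array alone and so could only appear as higher. Of the 7 markers of mature retinal pigment epithelium, RPE65, RLBP1, BEST1 and TYR were under 100 on both arrays, while OTX2 read 1452 and 1625, MITF 2470 and 1020 and PMEL 114 and 229. Of the 4 blood markers 1 reached 100, with summed signals of 321.8 and 335.5. The summed signals of the 3 neuronal markers, 2 of them measured, were 1497 and 2565, mainly from SYT1. SNAP25 differed by 0.29 on the probe set used and by 2.815 on its other probe set at 100 or more. The summed signals of COL1A1, DES and MYH11 were 7712 and 3407, mainly from COL1A1, whose 5 probe sets at 100 or more ranged from -3.34 to -0.27. The part of these markers in the differences above was not tested. The median signal of the arrays was 96.5 in control and 98.0 with miR-129-3p.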

How the data were processed

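The deposited table gives linear intensities for 54613 probe sets on both arrays; per the submitters' processing notes MAS5 and RMA were used, with no version or role, so the background correction and the scaling between arrays stay unknown. The precision is limited by 1 array a group, and no p-values were computed.

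Probe sets were named from the platform annotation: 41091 had 1 gene symbol, 1801 several (left out) and 11721 were not listed. Of the 41091, 41037 probe sets had a gene ID that matched the RefSeq gene table. Differences are log2(signal + 16) of miR-129-3p minus control; the constant of 16 understates differences of dim genes. Genes at 100 or more on either array counted as measured, and 2-fold was the limit for a call. The members, gene lists, motifs and limits were chosen with earlier results of these data known. All members could be named; of the other pathway genes, the 5 lowest and 5 highest, MKI67 being named after its values were seen. Promoter and miRNA sequences came from RefSeq tables. Alternatives covered scaling, filter, probe set, constant, floor and fold limit. The code was tested on simulated data. Figures were drawn with matplotlib 3.10.9, the loess trend was fitted with statsmodels 0.14.6, and tables were handled with pandas 2.3.3 and numpy 2.4.6 under Python 3.11.15.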

Additional observations from a re-analysis of the deposited data

How the results depend on the processing

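Over 11 alternatives that kept the 2-fold limit, 17 to 24 genes were at least 2-fold lower and 0 at least 2-fold higher, and the median difference ranged from -1.19 to -0.80. Between 34 and 47 genes of the group were counted. The shares over all genes were 2.99 to 5.27% lower and 5.27 to 8.43% higher. With other limits, 14 genes were at least 3-fold lower (1.73% of all) and 28 at least 1.5-fold lower (10.8% of all). At either limit 0 were higher (3.71% and 17.3% of all). Taking, for each gene, the probe set with the difference closest to 0 gave 19 genes (3.22% of all). It moved the median of the constitutive centromere network to -0.81. The 19 are the 14 called genes with 1 probe set at 100 or more and the 5 whose several such probe sets were all at least 2-fold lower. Without probe sets ending in _x_at or _s_at, 34 genes were measured and 17 were at least 2-fold lower (4.82% of all). The anaphase onset median was then 0.065, over the 2 genes that remained measured, since CDC20 and PTTG1 have no other probe set. Median centring, a loess trend and quantile normalization moved single genes' differences by at most 0.103. Of 342 recomputed values for single genes, 12 moved by more than the pooled SD of 0.37 between probe sets. They were in 7 genes (CENPA, CENPN, CENPU, SMC2, SMC4, SPC24 and SPC25). Many of the 342 could not move that far. Only 20 genes had several probe sets at 100 or more, and the scalings shifted values by at most 0.103. Of the called differences 0 changed sign, but none of these alternatives could have changed one. A change of constant cannot change a sign, and shifts of at most 0.103 could not change that of a 2-fold call. The choice of probe set could not do so because every probe set at 100 or more of a called gene lay below 0. No paired analysis was possible because each group holds 1 array. Signals near or under 100 limit what can be said of SGO1, SKA1, CENPT and MAD1L1.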
